A study of Setaria viridis with 22 samples.

Results

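The *spp1* mutant inflorescence of green millet (*Setaria viridis*) was compared with itself at 2 stages, 12 and 14 d after sowing (DAS). The comparison used 7 of the 22 RNA libraries of the study, chosen by their labels: 3 of *spp1* at 12 DAS (replicates 1, 2, and 4) and 4 of *spp1* at 14 DAS (replicates 1 to 4). The mutant, *sparse panicle1*, is in the background of A10.1, the wild-type accession, which had 3 libraries at 12 DAS and 4 at 14 DAS. The labels name no treatment of either genotype, and each replicate was a pool of 10 to 30 whole inflorescences dissected by hand. Such a pool holds every cell type of the young panicle, so fewer cells of a type and less RNA per cell cannot be told apart. The lesion carried by *spp1* is not given in the labels.

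*SPP1* (Sevir.5G392400, also *SvAUX1*) encodes an AUX1-like importer that carries auxin into cells. Local auxin build-up marks where lateral organs start on a meristem, and AUX/IAA repressors, auxin response factors, and F-box receptors turn that auxin into changes of transcription. In grasses the branch meristems of a panicle later become spikelet and floral meristems, and MADS-box genes mark that step. ALOG proteins such as rice TAWAWA1 and the TERMINAL FLOWER1 family are known to hold meristems in the branching state. In Setaria each branch ends in spikelets or in sterile bristles.

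Expression was given as FPKM, the fragments mapped to a gene scaled to its length and to the depth of the library. Fold changes are differences of log2(FPKM + 1) between the stage means, 14 minus 12 DAS, with the SE of limma, so they understate the change of low genes. Of 35214 genes, 17716 had a mean of at least 1 FPKM over the 7 libraries and were tested. A gene was called when its Benjamini-Hochberg adjusted p was under 0.05. The *spp1* libraries held 10.4 to 24.3 M mapped first reads, the fewest in replicate 4 of 14 DAS. That library stood apart from its group, so results are also given without it.

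A total of 187 genes changed between 12 and 14 DAS in *spp1* (limma, 1.06% of those tested), of which 90 rose (0.508%) and 97 fell (0.547%). Changes over 2-fold were found for 112 of them (0.632% of all genes tested), and their absolute log2 changes ran from 0.52 to 3.48. The libraries of both stages did not overlap in any of the 187 genes, which was also so in 1856 of all genes tested (10.5%). Without replicate 4 of 14 DAS, 224 genes changed (1.26%), 105 up (0.591%) and 119 down (0.67%), and 162 genes were shared by both lists. All 249 genes of either list moved in the same direction in both fits. The fits share every library but replicate 4, so such agreement is largely set in advance. Many calls were lost when any other library was left out. Of the 12 DAS libraries, leaving out replicate 2 left 7 genes, replicate 4 left 1 (Sevir.1G359500), and replicate 1 left 113. Of those of 14 DAS, leaving out replicate 3 left 22 genes, replicate 2 left 91, and replicate 1 left 115. Each call described in the next paragraphs carries that limit. Of the 72 named genes past the threshold, 71 were not past it without replicate 4 of 12 DAS and 65 without replicate 2. These fits also had fewer libraries, and whether that or the library itself lost the calls was not tested. Replicate 1 was the 12 DAS library closest to the 14 DAS level in 62 of the 90 rising genes and in 62 of the 97 falling genes.

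*SPP1* was expressed at 21.6, 16.6, and 16.9 FPKM in the 12 DAS libraries of the mutant and at 16.5, 21.4, 17.2, and 28.2 FPKM in those of 14 DAS. The groups overlapped, and the highest value was that of replicate 4. The log2 change was 0.15 ± 0.19 (SE, adjusted p = 0.9378), and a two-sided exact permutation test of the 35 divisions of the libraries gave p = 0.543. Without replicate 4 the change was 0.00 (adjusted p = 0.9996). In A10.1 the mean was 27.0 FPKM at 12 DAS and 32.6 FPKM at 14 DAS, and the change did not differ between genotypes past the threshold (difference -0.11 ± 0.22 log2, SE, adjusted p = 0.8807).

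**Figure D1:**
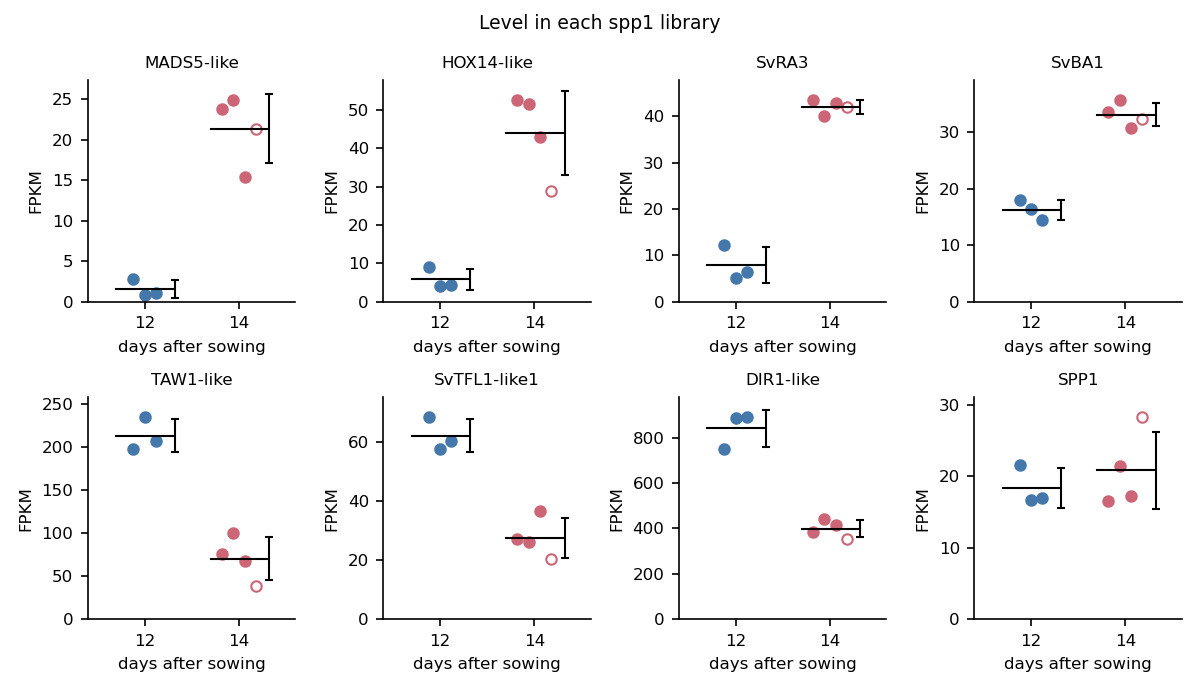
FPKM (y axes, linear, from 0) of 8 genes in each *spp1* library at 12 and 14 DAS, with replicate 4 of 14 DAS drawn open, a horizontal line at each group mean, and an error bar of ± 1 SD. *SvRA3* lies at 40.0 to 43.5 FPKM in all 14 DAS libraries against 5.10 to 12.3 at 12 DAS, while *SPP1* overlaps between the stages.

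MADS-box genes, which specify spikelet and floral meristems and floral organs, held the largest number of changes of any transcription factor family listed. Of 15 members, 7 rose and 2 fell (7 rose and 4 fell without replicate 4), with a median log2 change of 0.64 against -0.05 over all genes. All lists but those of auxin and branching genes were drawn from gene descriptions. The deposited tables give these only for genes called between genotypes in these same libraries. Such lists are therefore not independent evidence. Their counts are to be read against the 2728 described genes tested, of which 116 changed (4.25%).

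The largest change of a described gene was that of Sevir.4G060800, described as maize *zmm8* and a MADS5-like gene of the SEPALLATA type, which acts in spikelet and floral meristems. It stood at 2.87, 0.86, and 1.04 FPKM at 12 DAS and at 23.8, 24.9, 15.4, and 21.4 FPKM at 14 DAS. All 14 DAS libraries lay far above all 12 DAS libraries, and the log2 change was 3.17 ± 0.27 (SE, adjusted p = 0.007612). Expression of Sevir.5G305800, MADS32-like and of a clade known from grasses, was 443, 294, and 284 FPKM at 12 DAS and 754, 877, 888, and 1050 FPKM at 14 DAS. It was the most abundant of the MADS-box genes that rose (1.41 ± 0.18 log2, SE, adjusted p = 0.01343), with its highest value in replicate 4.

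An APETALA1-type gene and a SEPALLATA-type gene of the branch to spikelet transition rose by similar amounts. The SEPALLATA-type gene of the preceding paragraph rose by more. Sevir.2G006400, described as *zap1* and MADS15-like, was at 115, 76.7, and 69.9 FPKM at 12 DAS and 175, 202, 195, and 178 FPKM at 14 DAS (1.13 ± 0.17 log2, SE, adjusted p = 0.02372). Sevir.9G087100, described as *zmm24* and MADS34-like, was at 63.7, 36.1, and 40.7 FPKM and then at 93.4, 98.3, 106, and 104 FPKM (1.13 ± 0.18 log2, SE, adjusted p = 0.03244). In both genes replicate 1 was the highest 12 DAS library and remained below every 14 DAS library.

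A pair of SOC1-like genes, a type that promotes flowering in other plants, also rose. Sevir.9G347400 (MADS56-like) went from 4.87, 2.27, and 2.72 FPKM to 12.9, 11.9, 13.9, and 10.7 FPKM, a log2 change of 1.68 ± 0.20 (SE, adjusted p = 0.01259). Sevir.9G565200 (MADS50-like) varied little within a stage, with 8.42 to 8.97 FPKM at 12 DAS and 15.8 to 16.9 FPKM at 14 DAS (0.84 ± 0.09 log2, SE, adjusted p = 0.01052). Sevir.5G410100, MADS2-like and of the type that acts in petals and stamens, was low, at 2.47 to 2.97 FPKM and then 4.83 to 6.23 FPKM (0.82 ± 0.13 log2, SE, adjusted p = 0.02974).

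The MADS-box genes that fell were Sevir.3G374400 and Sevir.9G518400. Sevir.3G374400 (MADS20-like) was at 6.37, 6.82, and 9.55 FPKM at 12 DAS and at 2.74, 2.68, 2.69, and 2.29 FPKM at 14 DAS (-1.24 ± 0.15 log2, SE, adjusted p = 0.01262). Sevir.9G518400, described as a K-box and MADS-box gene, was at 119, 131, and 184 FPKM and then at 77.1, 51.4, 67.6, and 72.3 FPKM (-1.09 ± 0.18 log2, SE, adjusted p = 0.03877). Past the threshold only without replicate 4 were Sevir.1G335300 (MADS22-like, SVP type; -0.77 ± 0.15 log2, SE, with all 7 libraries, adjusted p = 0.06794 with them and 0.04086 without replicate 4) and Sevir.4G075400 (-0.49 ± 0.10 log2, SE, adjusted p = 0.06059 and 0.03825).

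Of 24 homeobox genes, a group that includes leucine zipper factors of organ growth, 3 rose and none fell (2 rose and 1 fell without replicate 4, when Sevir.3G098600 had an adjusted p of 0.06905 and the HOX13-like Sevir.9G515800 one of 0.04453). Sevir.2G379700 (HOX14-like) was at 9.07, 4.18, and 4.33 FPKM at 12 DAS and at 52.6, 51.5, 43.0, and 29.0 FPKM at 14 DAS. The groups were far apart, with replicate 4 the lowest 14 DAS library (2.75 ± 0.28 log2, SE, adjusted p = 0.01052). Sevir.9G528900 (HOX21-like) went from 11.2 to 13.1 FPKM at 12 DAS to 23.4 to 28.5 FPKM at 14 DAS (1.05 ± 0.11 log2, SE, adjusted p = 0.01052).

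Other regulators were called in small numbers. Sevir.2G336100, an SBP-box gene similar to SPL13, was at 310, 200, and 239 FPKM at 12 DAS and at 463, 523, 586, and 612 FPKM at 14 DAS (1.14 ± 0.16 log2, SE, adjusted p = 0.02083), and was the only 1 of 7 SBP-box genes called. Sevir.9G122200, described as maize *tb1*, a TCP gene that represses branch outgrowth in maize, was at 18.4, 12.1, and 14.5 FPKM and then at 30.3, 33.9, 32.8, and 37.2 FPKM (1.12 ± 0.14 log2, SE, adjusted p = 0.0143). Both were higher in all 14 DAS libraries than in any 12 DAS library, and *tb1* was the only 1 of 7 TCP genes called. Of 15 AP2/ERF genes 1 rose and 2 fell, of 8 NAC genes 1 rose, of 39 MYB genes and of 30 bHLH genes 1 rose and 1 fell, and of 13 WRKY genes 1 fell.

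Of these, the ethylene response type factor Sevir.3G023200 rose from 1.59, 0.65, and 0.60 FPKM to 3.34, 4.47, 5.10, and 5.74 FPKM (1.56 ± 0.22 log2, SE, adjusted p = 0.02068). The AP2/ERF genes that fell were Sevir.5G095000, which also holds a B3 domain (-1.33 ± 0.23 log2, SE, adjusted p = 0.04034), and Sevir.3G045500, described as related to AP2.7 (-1.11 ± 0.17 log2, SE, adjusted p = 0.02538). All libraries of both were higher at 12 than at 14 DAS, the former at 4.46 to 9.33 against 1.90 to 2.68 FPKM and the latter at 5.12 to 5.79 against 1.35 to 2.58 FPKM. Sevir.6G213600 (NAC domain 77-like) rose from 45.6 to 53.9 FPKM up to 74.2 to 104 FPKM, and Sevir.6G166200 (MYB-related) from 3.13 to 4.48 FPKM up to 9.13 to 11.7 FPKM. Sevir.3G292000 (bHLH61-like) fell from 31.1, 58.7, and 44.3 FPKM to 15.0, 16.0, 17.4, and 15.8 FPKM (-1.38 ± 0.19 log2, SE, adjusted p = 0.01905).

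Genes labelled in the study for inflorescence branching moved in both directions. Of 17 genes, 16 passed the filter, 2 rose, and 3 fell (2 and 4 without replicate 4), with a median log2 change of -0.21. The called share was 31.2%, against 1.06% of all genes, but the study picked these genes as differing between genotypes in the same libraries, so the count is not independent evidence. Maize *ramosa3* encodes a trehalose phosphate phosphatase that restricts branching, and its homolog *SvRA3* (Sevir.2G407500) was at 12.3, 5.10, and 6.49 FPKM at 12 DAS and at 43.5, 40.0, 42.8, and 42.1 FPKM at 14 DAS. All 4 libraries of 14 DAS, replicate 4 included, lay close together and far above 12 DAS (2.35 ± 0.23 log2, SE, adjusted p = 0.01052). *SvBA1* (Sevir.5G374100), homologous to the maize bHLH gene *barren stalk1* that acts in axillary meristem initiation, was at 17.9, 16.4, and 14.4 FPKM and then at 33.5, 35.6, 30.7, and 32.3 FPKM. The stages did not overlap, and the log2 change was 0.98 ± 0.11 (SE, adjusted p = 0.01052).

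*SvRA1* (Sevir.2G209800), homologous to a maize zinc finger gene that gives branches determinacy, did not pass the filter and was not tested. It was listed at 0 in all 3 libraries of 12 DAS and in replicate 1 of 14 DAS, and at 1.40, 1.61, and 0.94 FPKM in the other 14 DAS libraries. *SvRA2* (Sevir.5G116100), homologous to a maize LOB domain gene of the same pathway, was at 10.6, 7.86, and 7.11 FPKM at 12 DAS and at 9.85, 11.6, 10.4, and 14.8 FPKM at 14 DAS, with the groups overlapping (0.41 ± 0.17 log2, SE, adjusted p = 0.4687). *SvRA3* was thus past the threshold, *SvRA2* was not, and *SvRA1* was not tested.

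Every ALOG gene listed was lower at 14 DAS, and the list held only members with a description. All 7 members had a negative change, and 2 passed the threshold (3 without replicate 4). The median log2 change was -1.19 against -0.05 over all genes (-1.05 without replicate 4). In A10.1 over the same interval, 5 of 6 tested members were called lower, with a median of -1.24 against 0.06 over all genes. The values that follow are those of *spp1*. Sevir.7G176000 (*SvTAW1*-like) was at 197, 234, and 207 FPKM at 12 DAS and at 75.0, 99.7, 67.4, and 38.3 FPKM at 14 DAS (-1.66 ± 0.27 log2, SE, adjusted p = 0.03558). Sevir.1G244200 (*SvTAW1*-like) was at 68.9, 73.4, and 61.8 FPKM and then at 32.0, 33.8, 31.2, and 21.5 FPKM (-1.19 ± 0.16 log2, SE, adjusted p = 0.01713). In both genes replicate 4 was the lowest library and the other 14 DAS libraries were already below all of 12 DAS.

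Another *SvTAW1*-like gene, Sevir.4G277900, was past the threshold only without replicate 4 (-1.41 ± 0.27 log2, SE, with all 7 libraries, adjusted p = 0.05638 with them and 0.0409 without replicate 4). *SvTAW1* itself (Sevir.9G221800) was at 54.8, 76.8, and 50.5 FPKM at 12 DAS and at 26.8, 33.6, 18.2, and 11.6 FPKM at 14 DAS (-1.47 ± 0.33 log2, SE, adjusted p = 0.09139, and 0.06016 without replicate 4). Its stages did not overlap either, and its 14 DAS libraries spread more than those of the called members. Whether reads are shared between members of this family was not tested, so the split between single members is uncertain.

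Of the TERMINAL FLOWER1 family, which holds meristems indeterminate, *SvTFL1-like1* (Sevir.1G183200) fell from 68.4, 57.6, and 60.5 FPKM to 27.1, 26.0, 36.5, and 20.5 FPKM (-1.17 ± 0.18 log2, SE, adjusted p = 0.02575). *SvTFL1* (Sevir.8G033800) was low in all libraries, at 2.42 to 4.28 FPKM and then 0.98 to 2.39 FPKM (-0.86 ± 0.23 log2, SE, adjusted p = 0.1542). Both genes were lower at 14 DAS in every library, and only *SvTFL1-like1* passed the threshold.

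Among the branching genes whose stages overlapped were *SvABPH1* and *SvTSH1*. *SvABPH1* (Sevir.7G182100), a cytokinin response regulator known in maize for leaf arrangement, was at 33.9, 16.1, and 28.8 FPKM at 12 DAS and at 18.3, 18.9, 25.5, and 73.9 FPKM at 14 DAS. *SvTSH1* (Sevir.3G136200), a GATA factor that represses bracts in maize, was at 19.6, 24.1, and 16.7 FPKM and then at 16.4, 14.7, 20.3, and 34.0 FPKM. In both genes replicate 4 alone lay above all other *spp1* libraries, and the log2 changes turned from 0.18 and 0.02 with all libraries to -0.27 and -0.22 without it, none past the threshold.

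*SvLG1* and *SvBAF1* had stages that did not overlap and were not past the threshold. *SvLG1* (Sevir.3G023500), an SBP-box gene of leaf and branch angle in maize, was at 33.8, 14.7, and 12.2 FPKM at 12 DAS and at 47.6, 43.5, 54.1, and 39.6 FPKM at 14 DAS (1.28 ± 0.30 log2, SE, adjusted p = 0.1115). *SvBAF1* (Sevir.4G025200), an AT-hook gene of axillary meristems in maize, was at 38.8, 27.0, and 28.6 FPKM and then at 40.8, 50.8, 50.0, and 55.5 FPKM (0.64 ± 0.15 log2, SE, adjusted p = 0.1193). In both, replicate 1 was the 12 DAS library nearest to 14 DAS. The lignin genes *SvBM1* (Sevir.1G056800) and *SvBM3* (Sevir.6G053300), homologous to maize *brown midrib* genes, and the TCP gene *SvBAD1* (Sevir.2G210100) had overlapping stages and log2 changes of -0.44, -0.54, and 0.46.

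**Figure D2:**
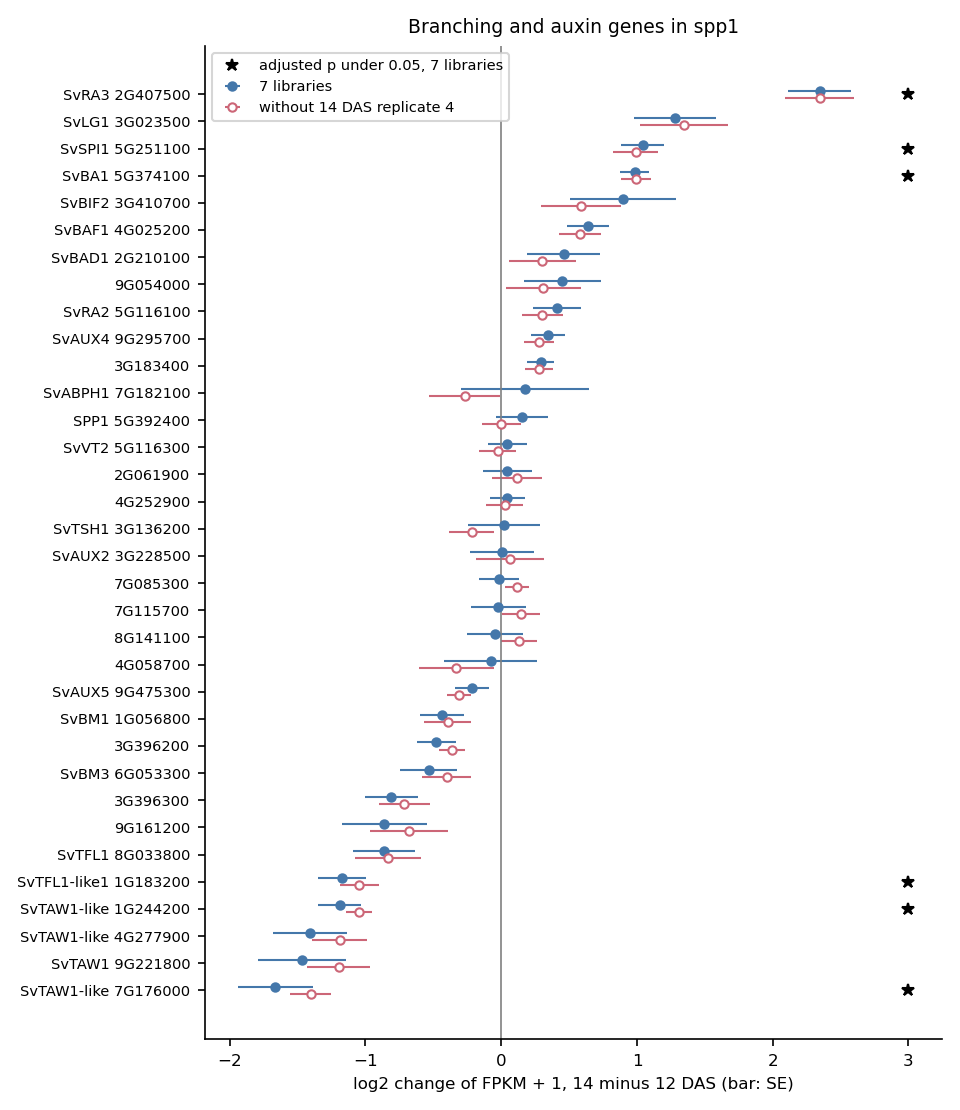
Log2 change from 12 to 14 DAS in *spp1* (x axis, difference of mean log2(FPKM + 1), bars ± SE of limma) of the branching genes, the auxin biosynthesis genes, and the auxin genes labelled in the study, with all 7 libraries (filled) and without replicate 4 of 14 DAS (open). Stars mark an adjusted p under 0.05 with all 7 libraries. *SvRA3* lies farthest to the right at 2.35 and the *SvTAW1*-like gene Sevir.7G176000 farthest to the left at -1.66.

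Of 67 auxin genes tested over all lists, 1 was called (1.49%, near the 1.06% of all genes), and 2 without replicate 4 (2.99%, against 1.26%). In the biosynthesis list *SvSPI1* (Sevir.5G251100), homologous to a maize YUCCA-type monooxygenase that makes auxin, rose from 26.7, 16.7, and 23.1 FPKM to 40.1, 47.4, 45.5, and 51.1 FPKM (1.04 ± 0.16 log2, SE, adjusted p = 0.0287, and 0.04074 without replicate 4). It was not past the threshold after median-ratio scaling (adjusted p = 0.05563), with no filter (0.05472), or with the replicate number as a block (0.1102). *SvVT2* (Sevir.5G116300), homologous to a maize tryptophan aminotransferase of the preceding step, was at 15.9 to 22.2 FPKM at 12 DAS and 17.0 to 22.2 FPKM at 14 DAS (0.05 ± 0.14 log2, SE, adjusted p = 0.9708). The stages were thus apart for *SvSPI1* and overlapped for *SvVT2*. *SvBIF2* (Sevir.3G410700), homologous to a maize PINOID-type kinase that acts on auxin transport and held in the same list, was at 57.8, 27.6, and 48.9 FPKM and then at 49.0, 62.0, 89.9, and 153 FPKM, with replicate 4 far above the rest (0.90 ± 0.39 log2, SE, adjusted p = 0.4877).

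None of the other auxin lists held a called gene in the fit of all 7 libraries: 4 tested importers of 5, 7 efflux carriers of 19, 3 F-box receptors, 26 AUX/IAA repressors of 30, and 24 auxin response factors. The importers besides *SPP1* were *SvAUX4* (Sevir.9G295700; 108, 118, and 95.0 FPKM at 12 DAS and 136, 137, 117, and 157 FPKM at 14 DAS), *SvAUX5* (Sevir.9G475300; 135 to 152 and 111 to 153 FPKM), *SvAUX2* (Sevir.3G228500; 3.75 to 7.15 and 4.39 to 7.96 FPKM), and the untested *SvAUX3* (Sevir.8G047900; at most 0.93 FPKM). *SvAUX4* and *SvAUX5* were the most abundant importers on this per-length scale, and their stages overlapped. Among AUX/IAA genes Sevir.9G095600 was past the threshold only without replicate 4 (7.43, 5.86, and 5.0 FPKM at 12 DAS against 14.0, 18.0, 11.9, and 9.29 FPKM at 14 DAS, adjusted p = 0.08488 with all libraries and 0.03454 without). Among the AUX/IAA genes labelled in the study, the IAA31-like Sevir.3G396300 was at 9.17, 11.7, and 12.9 FPKM and then at 6.33, 8.27, 5.0, and 4.64 FPKM (-0.81 ± 0.20 log2, SE, adjusted p = 0.1189), and the IAA30-like Sevir.3G396200 was at 90.5 to 97.3 FPKM and then at 51.9 to 79.1 FPKM. In both the stages did not overlap and replicate 4 was the lowest library. *SvBIF1* (Sevir.5G123100) and *SvBIF4* (Sevir.3G111900), homologous to maize AUX/IAA genes of axillary meristem initiation, had log2 changes of -0.29 and -0.11 with stages that overlapped. Among efflux carriers Sevir.5G249500 had the largest difference, from 22.6, 10.8, and 12.8 FPKM to 34.4, 33.0, 42.7, and 27.4 FPKM (1.16 ± 0.24 log2, SE, adjusted p = 0.07523).

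Trehalose phosphate is a sugar signal in plants, and of 15 genes of trehalose metabolism 2 rose (4 without replicate 4) and none fell. Beside *SvRA3*, Sevir.4G091700, described as a trehalose phosphate phosphatase, was at 19.7, 9.61, and 11.9 FPKM at 12 DAS and at 39.1, 44.6, 58.3, and 31.4 FPKM at 14 DAS (1.61 ± 0.26 log2, SE, adjusted p = 0.03374). Sevir.1G330000, also a phosphatase, and Sevir.6G172300, a trehalose phosphatase/synthase, passed only without replicate 4 (adjusted p = 0.01979 and 0.04737, against 0.07863 and 0.1486 with it). In both of these replicate 4 was the 14 DAS library nearest to 12 DAS, at 5.90 FPKM against 8.84 to 11.6 FPKM and at 0.73 FPKM against 1.42 to 2.86 FPKM.

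Genes of the plant surface and of the cell wall were among those that fell. Of all 2728 described genes tested, 116 changed (4.25%), 57 of them down. Of 37 lipid transfer and cuticle genes 4 fell (5 without replicate 4), none rose, 31 had a negative change, and the median log2 change was -0.67. Sevir.5G431200, a DIR1-like lipid transfer protein, was the most abundant called member, at 748, 888, and 889 FPKM at 12 DAS and at 383, 440, 413, and 353 FPKM at 14 DAS (-1.08 ± 0.11 log2, SE, adjusted p = 0.01052). Every 14 DAS library was far below every 12 DAS library. Sevir.8G218700, a WSD1-like acyltransferase of a family that makes wax esters, was at 12.8, 11.9, and 15.1 FPKM and then at 6.02, 5.20, 3.98, and 3.51 FPKM (-1.35 ± 0.17 log2, SE, adjusted p = 0.01492).

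Sevir.2G302000 (EXL3-like esterase/lipase) and Sevir.8G012700 (lipid transfer protein family) were the other called members, with log2 changes of -1.18 and -1.09. Sevir.8G012600, described as *plt1*, and Sevir.2G078200, a non-specific lipid transfer protein, passed only without replicate 4 (adjusted p = 0.04241 and 0.04702, against 0.0639 and 0.07974 with it). The Sevir.2G302000 gene had an adjusted p of 0.0537 without replicate 4.

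Of 23 lignin and phenylpropanoid genes 3 fell and 21 had a negative change (median -0.47 log2). The 3 were all laccase-15-like: Sevir.8G221400 went from 136 to 141 FPKM down to 71.7 to 90.7 FPKM (-0.72 ± 0.10 log2, SE, adjusted p = 0.02372), Sevir.8G222700 from 104 to 109 FPKM down to 52.5 to 75.3 FPKM, and Sevir.8G211700 from 5.93 to 6.55 FPKM down to 1.31 to 3.32 FPKM. Laccases polymerise lignin in other plants, and whether these 3 genes share reads was not tested. Of 15 expansin and wall-loosening genes 3 fell (1 without replicate 4), with a median of -0.61. The expansin-like A3 gene Sevir.2G322800 varied least, from 25.5, 25.9, and 25.4 FPKM to 15.6, 16.5, 15.8, and 16.4 FPKM (-0.64 ± 0.09 log2, SE, adjusted p = 0.01729). Sevir.3G209800 (expansin-A4-like) and Sevir.3G165200 (polygalacturonase) had adjusted p values of 0.04467 and 0.04901, and of 0.05204 and 0.05962 without replicate 4.

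Single called members came from several further lists, whose counts are again to be read against the 4.25% of described genes that changed. Peroxidase 73-like Sevir.2G277300 rose from 13.8 to 16.0 FPKM up to 24.4 to 25.9 FPKM, and peroxidase 43-like Sevir.7G288900 fell from 11.8 to 16.4 FPKM down to 4.66 to 6.11 FPKM. Of 31 heat shock and chaperone genes the mitochondrial 26.2 kDa protein Sevir.4G089100 rose (1.62 ± 0.20 log2, SE, adjusted p = 0.01356) and *hsp101* (Sevir.3G179600) fell (-1.14 ± 0.18 log2, SE, adjusted p = 0.03374). F-box genes other than auxin receptors had 4 risers of 44, 3 of them at no more than 3.02 FPKM in any library, and transporters had 1 riser and 3 fallers of 78. The riser, glucose 6-phosphate/phosphate translocator Sevir.2G346100, which moves sugar phosphate into plastids, was at 58.7 to 64.5 FPKM at 12 DAS and at 102 to 143 FPKM at 14 DAS (0.88 ± 0.13 log2, SE, adjusted p = 0.02498).

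Several of the largest changes were in genes with no description. Sevir.1G359500 was listed at 0 in all 3 libraries of 12 DAS and at 9.74, 8.81, 8.73, and 14.0 FPKM at 14 DAS (adjusted p = 0.0003291). It was the gene that stayed past the threshold when any 1 library was left out. Sevir.2G336300 rose from 37.9, 22, and 17.9 FPKM to 116, 119, 116, and 98.0 FPKM (2.14 ± 0.22 log2, SE, adjusted p = 0.01052). Sevir.5G292300 fell the most, from 10.5, 24.2, and 18.6 FPKM to 4.06, 1.49, 2.48, and 2.08 FPKM (-2.39 ± 0.31 log2, SE, adjusted p = 0.0143). Descriptions were at hand for 59 of the 90 rising and 57 of the 97 falling genes.

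**Figure D3:**
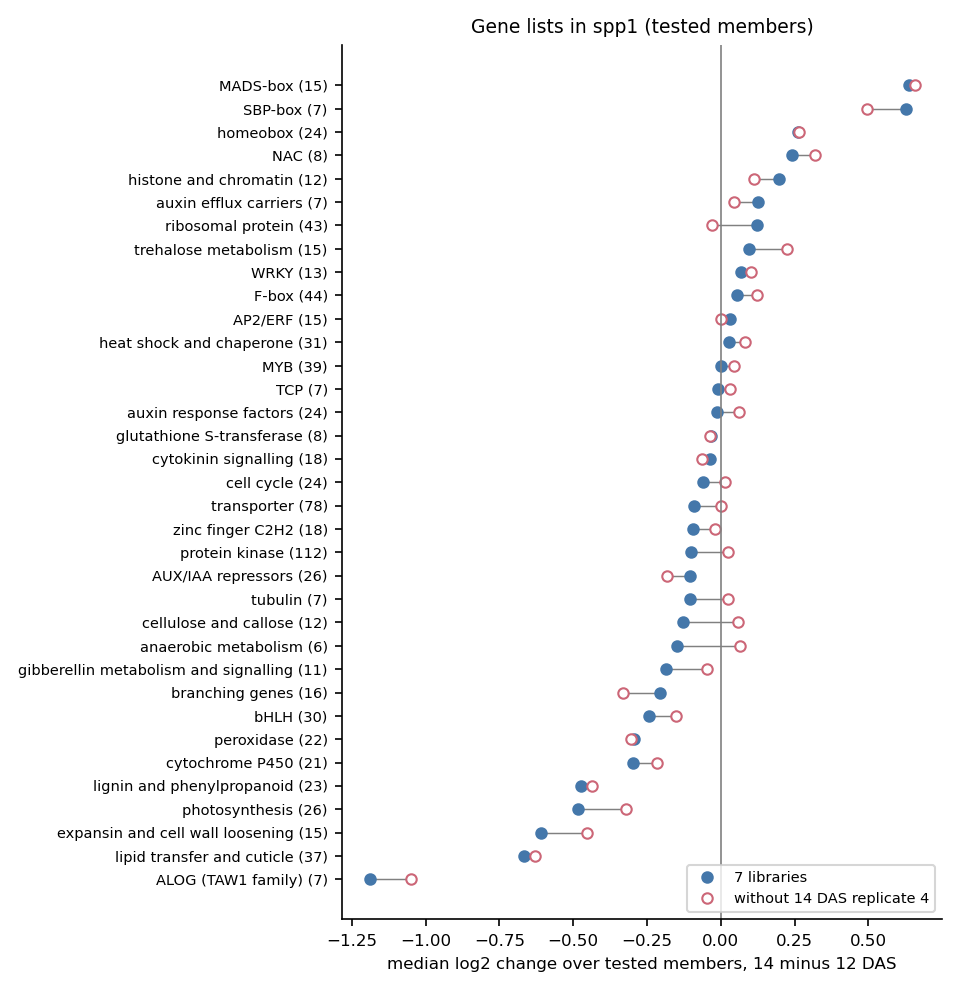
Median log2 change from 12 to 14 DAS in *spp1* (x axis) of each gene list with at least 5 tested members, their number in parentheses, with all 7 libraries (filled) and without replicate 4 of 14 DAS (open). ALOG genes have the lowest median at -1.19, and the ribosomal protein list is among those that move across 0 when replicate 4 is left out.

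Lists that stand for other tissue or for the state of the RNA held few calls. They too hold only genes described for being called between genotypes, so they are not independent markers. All 26 photosynthesis genes, a sign of leaf tissue, were thus detected, 24 had a negative change, and none passed the threshold. Their median log2 change was -0.48 against -0.05 over all genes. Their summed level was 5082 to 6296 FPKM at 12 DAS, 3776 to 5132 FPKM in replicates 1 to 3 of 14 DAS, and 2976 FPKM in replicate 4. None of 6 genes of anaerobic metabolism was called, and their sum overlapped between stages (110 to 191 FPKM at 12 DAS, 73.4 to 185 FPKM at 14 DAS). Cell cycle, histone, tubulin, cytokinin, gibberellin, cellulose, cytochrome P450, glutathione S-transferase, C2H2 zinc finger, and LOB domain lists held no called gene either. In A10.1 over the same interval, all 26 photosynthesis genes had a negative change and 23 were called lower (median -0.77 log2). Whether the photosynthesis level had a part in the other changes was not tested.

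Replicate 4 of 14 DAS differed from its group in breadth. It had 86.69% of reads mapped and 13129 genes listed at 0, against 89.24 to 92.33% and 11312 to 12413 genes in the other 6 libraries. Relative to the mean of its group mates, its levels were shifted by a median of -0.19 log2 over 17716 genes. It was more than 2-fold higher than that mean in 238 genes and more than 2-fold lower in 459 (3.93% of genes together, against 0.61 to 1.27% for the other libraries). With that shift, it was also the lowest of the 7 libraries in 8335 of the 17716 genes. Ribosomal protein genes summed to 34810 FPKM in it and to 19950 to 24800 FPKM in the others, and histone and chromatin genes to 3428 FPKM against 1759 to 2524 FPKM. With replicate 4, 36 of 43 ribosomal protein genes had a positive change, and without it 17 did. Protein kinase genes had a negative change in 74 of 112 with it and in 47 of 114 without it. Replicate 2 of 12 DAS was the highest of the 7 libraries in 5520 genes, against 1391 to 2787 genes for the others. Its median deviation from the mean of its group mates was 0.10 log2, and it lay more than 2-fold from that mean in 1.06% of genes.

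Among the genes most apart in replicate 4, Sevir.9G383200 was listed at 0 there and at 283, 215, and 123 FPKM in the other 14 DAS libraries, and Sevir.6G138800 was at 254 FPKM there against 30.1, 38.2, and 69.8 FPKM. Both have no description, and neither passed the threshold between stages. In the 224 genes that changed without replicate 4, its own level lay beyond all 12 DAS libraries in the direction of the change in 212 genes and inside the 12 DAS range in 8. The same 12 DAS libraries chose the 224 genes, so these counts are partly set by the choice. Of the 62 genes called only without replicate 4, it was nearer to 12 DAS than its group mates in 46, as that choice favours. Among these was Sevir.2G437800, described as maize *bd1*, an ERF gene that fixes spikelet meristem fate, with 0.46, 0, and 0.33 FPKM at 12 DAS and 4.61, 6.08, 2.48, and 0.84 FPKM at 14 DAS (adjusted p = 0.1391 with it and 0.02139 without it).

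The same interval in A10.1, which shares no library with the *spp1* comparison, changed 1053 genes (limma, 5.98% of 17618 tested), 521 up (2.96%) and 532 down (3.02%). After scaling each library by its median ratio the split was 432 up and 710 down. Of the 90 genes that rose in *spp1*, 65 were called up in A10.1 (72.2%, and 12.5% of its 521), and of the 97 that fell, 57 were called down (58.8%, and 10.7% of its 532). None was called in the opposite direction. *SvRA3* rose by 2.89 on the log2 scale in A10.1 and 2.35 in *spp1*, Sevir.4G060800 by 3.54 and 3.17, and Sevir.2G379700 by 3.72 and 2.75, while the *SvTAW1*-like gene Sevir.7G176000 changed by -1.70 and -1.66 and *SvTFL1-like1* by -1.74 and -1.17. These 5 genes had the larger change in A10.1, but over the genes called in *spp1* the median was larger in *spp1*, at 1.13 log2 against 0.92 in A10.1 for the rising genes and at -1.05 against -0.87 for the falling genes. Read the other way, 441 of the 485 genes rising in A10.1 and tested in *spp1* had a positive change there (median 0.37 log2 against 0.69 in A10.1), and 516 of 527 falling genes had a negative change (-0.54 against -0.74). In each direction of reading the genotype in which the genes were chosen had the larger median, and such a gap is partly set by the choice.

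**Figure D4:**
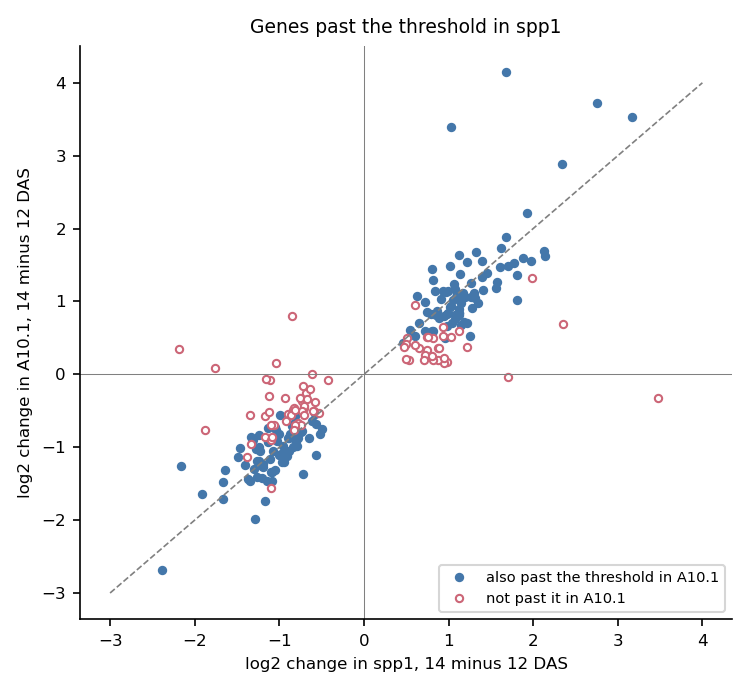
Log2 change from 12 to 14 DAS in *spp1* (x axis, all 7 libraries) and A10.1 (y axis) of genes called in *spp1* with all 7 libraries or without replicate 4, filled where also called in A10.1, with a dashed line at equal change. Points lie mostly in the quadrants of equal sign, with 85 of 87 rising and 86 of 89 falling genes of the 7-library fit that were tested in A10.1.

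A test of the difference itself, the interaction of genotype and stage, was past the threshold for 7 of 17720 genes (limma, 0.0395%), and for 2 without replicate 4 (0.0113%). An unadjusted p under 0.05 was found for 839 (4.74%) and 795 genes (4.48%), near the share that this cut-off gives by itself. Leaving out 1 library at a time gave 0 to 8 genes past the threshold. The median difference over all genes was -0.10 log2 and -0.01 after scaling, so each difference below is to be read against that shift. Sevir.6G172300, the trehalose phosphatase/synthase, was at 0.06, 0.28, and 0.48 FPKM in *spp1* at 12 DAS and at 2.86, 1.42, 1.76, and 0.73 FPKM at 14 DAS, against 0.05 to 0.19 FPKM and 8.81 to 12.5 FPKM in A10.1. It was higher at 14 DAS in both genotypes, and the change was smaller in *spp1* (difference -2.36 ± 0.31 log2, SE, adjusted p = 0.0255, and 0.02115 without replicate 4). This call was lost with a pseudocount of 0.1 and with the replicate number as a block. No gene with a more negative change passed there. With no filter and in 1 fit of all 22 libraries no interaction gene passed.

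Sevir.7G056600, with no description, was at 4.53, 3.70, and 4.10 FPKM in *spp1* at 12 DAS and at 7.53, 6.56, 5.62, and 6.30 FPKM at 14 DAS, while A10.1 went from 6.91 to 8.65 FPKM down to 3.52 to 4.82 FPKM (difference 1.31 ± 0.17 log2, SE, adjusted p = 0.0255, and 0.03734 without replicate 4). The stages were thus apart in opposite directions. The other 5 genes, among them inositol transporter 2-like Sevir.2G037400 and universal stress protein A-like Sevir.9G243700, had adjusted p values of 0.03362, and of 0.07034 to 0.07905 without replicate 4. In both the level in A10.1 rose, from 13 to 14.8 FPKM up to 23.5 to 33.5 FPKM for the transporter and from 28.2 to 35.7 FPKM up to 51.6 to 88.2 FPKM for the stress protein. In *spp1* the transporter was at 12.8 to 18.0 FPKM and then at 9.93 to 13.4 FPKM, and the stress protein at 45.8 to 61.3 FPKM and then at 30.7 to 39.6 FPKM. The *bd1* gene Sevir.2G437800 had the difference of -2.48 ± 0.53 log2 (SE) and did not pass (adjusted p = 0.3681).

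Each *spp1* library was placed on a scale made from the genes called between the A10.1 stages, in which 0 is the A10.1 mean at 12 DAS and 1 that at 14 DAS. The 12 DAS libraries of *spp1* scored -0.07, -0.22, and -0.31 and the 14 DAS libraries 0.39, 0.58, 0.44, and 0.47. The groups did not overlap, and the 10 DAS libraries of *spp1* lay lower, with a mean of -0.57. The difference between the stage means was 0.67, with and without replicate 4, against 1 in A10.1 by construction. Replicate 4 lay within its group on the whole scale, with the lowest score of the 14 DAS libraries on the rising genes alone (0.21, against 0.44 to 0.53) and the highest on the falling genes alone (0.74, against 0.34 to 0.63). The score was chosen and scaled in A10.1 and is a description with no test.

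**Figure D5:**
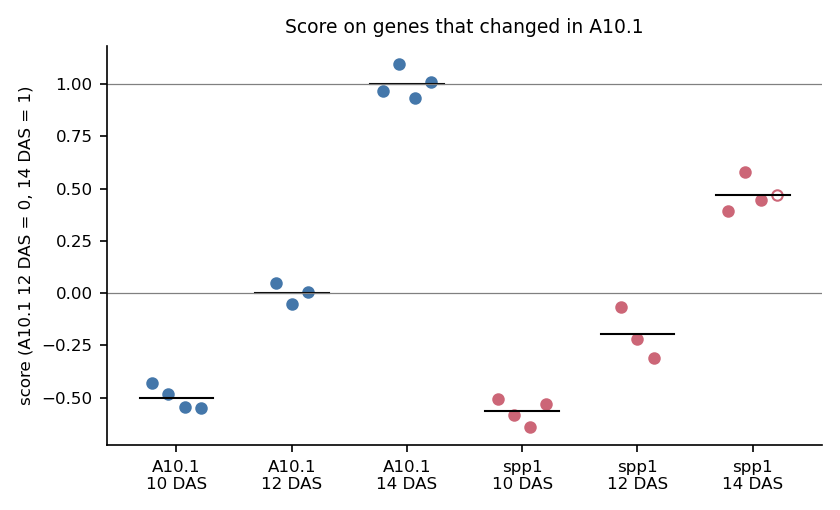
Score on the A10.1 scale (y axis, 0 for the A10.1 mean at 12 DAS and 1 for that at 14 DAS) of each library by genotype and stage, with lines at the group means and replicate 4 of *spp1* at 14 DAS drawn open. The *spp1* libraries of 12 DAS lie from -0.31 to -0.07 and those of 14 DAS from 0.39 to 0.58.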

How the data were processed

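RNA-seq of pooled inflorescences was trimmed by the authors with Trimmomatic, checked with FastQC, and mapped with TopHat2 and Bowtie2 to version 1 of the S. viridis genome, with Cuffdiff for expression (tool versions not given in the sources used here). The deposited FPKM table covers 35214 genes and 22 libraries. The percent of reads mapped was also deposited by the authors. Their tables of genes called between genotypes were used only for gene descriptions, and their fold changes and q-values were not used.

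Values were analysed as log2(FPKM + 1) with limma 3.58.1 in R 4.3.3 (empirical Bayes with a trend on mean expression, Benjamini-Hochberg adjustment over all genes tested), with stage as the only term within a genotype, genotype, stage, and their product for the interaction, and a filter at a mean of 1 FPKM. Figures used Python 3.11.15 and matplotlib 3.10.9. FPKM carries no counts, so depth gives no interval. P-values measure the spread between these pooled samples, and 3 against 4 libraries cannot give an exact p below 0.0286. The script was tested on simulated data with independent noise in each gene. Those data held no library that stood apart, so the test does not cover that case.

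The libraries, gene lists, and tests were chosen with earlier results of these data known. The patterns of 2 of the 39 lists were corrected once the files were at hand, for the wording of descriptions and not for values. Genes were named by a rule: *SPP1* and the genes the study labels in its figure of selected genes, the 15 largest changes in each direction, up to 4 called members of each list, the 10 genes most apart in replicate 4 in each direction, and the interaction genes. Undescribed genes that the rule took were mostly given as counts. Any other gene named was chosen after its values were seen. No identifier matched the reference gene table. Alternatives were a pseudocount of 0.1, no filter, a mean of at least 5 FPKM, median-ratio scaling, robust empirical Bayes, library weights, a block for the replicate number, 22 libraries in a single fit, and dropping libraries in turn.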

Additional observations from a re-analysis of the deposited data

Results flagged for a closer look

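In the 4 libraries of *spp1* at 14 DAS, 8 of 115 named genes (6.96%) had 1 library apart from the other 3, by a gap to its nearest neighbour past the critical share of the group's range, which chance gives in about 1 in 20 genes. Replicate 4 was the library apart in 6 of the 8. The gap took 0.869 of the range in *SvABPH1* (Sevir.7G182100), 0.847 in Sevir.2G336300, 0.867 in the MADS20-like gene Sevir.3G374400, 0.89 in the peroxidase gene Sevir.7G288900, 0.903 in the auxin receptor gene Sevir.8G141100, and 0.916 in the methyltransferase-like gene Sevir.8G211900. It took 0.86 of the range in *SvAUX2* (Sevir.3G228500), for replicate 2, and 1.0 in Sevir.1G016100, for replicate 1, the only 14 DAS library in which that gene was not listed at 0.

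The change from 12 to 14 DAS differed between genotypes in 7 genes, by limma's interaction test at an adjusted p of 0.0255 to 0.03362. It was more positive in *spp1* for Sevir.7G056600 (1.31 log2). It was more negative for the trehalose gene Sevir.6G172300 (-2.36), for Sevir.1G184300 (-2.03), for Sevir.1G246600 (-1.995), for the universal stress protein gene Sevir.9G243700 (-1.62), for Sevir.4G142400 (-1.28), and for the inositol transporter gene Sevir.2G037400 (-1.27). Without replicate 4 of *spp1* at 14 DAS, Sevir.7G056600 and Sevir.6G172300 remained past the threshold.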

How the results depend on the processing

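The 187 genes called between stages in *spp1* became 102 with no filter, 123 with a mean of at least 5 FPKM, 439 with library weights, and 585 in 1 fit of all 22 libraries, and 1 to 224 when a library was left out. The 224 without replicate 4 became 57 with no filter, 530 with library weights, and 465 in the fit of 22, and 1 to 212 when a further library was left out. The 1053 genes of A10.1 became 2901 with library weights and 574 to 1208 when a library was left out, with 593 without replicate 2 and 574 without replicate 4 of 12 DAS. The 7 interaction genes became 1 with a pseudocount of 0.1, with 813 of 17720 at an unadjusted p under 0.05. They became 0 with no filter, 3 with scaling, 0 in the fit of 22, and 0 to 8 when a library was left out. The 2 without replicate 4 became 0 with a pseudocount of 0.1, with no filter, with a mean of at least 5 FPKM, and in the fit of 22, 10 with library weights, and 0 to 5 when a library was left out. The change on the A10.1 scale was 0.579 to 0.686 when an A10.1 library was left out. The cause was not tested.

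With the replicate number as a block, 45 genes were called with all 7 libraries and 559 without replicate 4, 1802 in A10.1, and 2 and 1 in the interaction. Same-numbered *spp1* libraries of both stages had correlations of their deviations of -0.17 (replicate 1), 0.52 (replicate 2), and 0.41 (replicate 4). Libraries of different number had -0.48 to 0.41, and for replicates 2 and 4 of 12 DAS the same-numbered library gave the highest value. The labels do not say what the numbers mark. The main fits held no block, and whether the numbers pair the libraries was not settled.

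Changes of sign were found only in genes not past the threshold. With library weights the log2 change was -0.18 for *SvTSH1*, -0.04 for *SvVT2*, -0.048 for *SPP1*, -0.44 for *SvABPH1*, 0.08 for Sevir.7G085300, 0.19 for Sevir.7G115700, and 0.12 for Sevir.8G141100. With scaling the last 3 had 0.044, 0.034, and 0.007, and with the block Sevir.4G058700 had 0.002. Leaving out a library gave -0.13 to 0.21 for Sevir.2G061900, -0.22 to 0.17 for *SvTSH1*, -0.20 to 0.19 for *SvAUX2*, -0.401 to 0.093 for Sevir.4G058700, -0.059 to 0.105 for Sevir.4G252900, -0.057 to 0.17 for *SvVT2*, -0.073 to 0.117 for Sevir.7G085300, -0.13 to 0.15 for Sevir.7G115700, -0.27 to 0.39 for *SvABPH1*, and -0.16 to 0.13 for Sevir.8G141100. Of the 72 named genes past the threshold, 48 were not past it with the block, 34 with no filter, 17 with a pseudocount of 0.1, and 11 with scaling, among them *SvSPI1*, Sevir.3G098600, Sevir.3G209800, Sevir.5G095000, Sevir.6G213600, Sevir.8G012700, and Sevir.8G221400 (adjusted p = 0.05396 to 0.08511).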
